A study of Mus musculus with 12 samples.

Results

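A set of 10 genes that mark Kupffer cells, the macrophages that live in the liver sinusoids, and macrophages in general was followed across 12 arrays of mouse liver RNA. They were the 3 chains of the complement protein C1q (C1qa, C1qb and C1qc), the CSF1 receptor (Csf1r), the scavenger receptors Marco and Cd68, the secreted scavenger protein Cd5l, the Kupffer cell lectin Clec4f, the lysosomal membrane protein Laptm5 and lysozyme (Lyz2). All probe sets whose platform annotation gives 1 of these symbols alone were taken, which made 15 of the 12488 probe sets on the array and 10 of the 8251 genes with such a probe set. Of the 15, 13 lay above the intensity floor of 33.0 on at least 2 arrays and were tested. The other 2, a second probe set of Cd68 (11.3 to 14.5) and a second probe set of Lyz2 (11.3 to 23.2), stayed below the floor on all 12 arrays. A further probe set is shared by Lyz1 and Lyz2 and was kept apart.

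Liver was taken 4 h after an intraperitoneal injection, and there were 6 groups of 2 arrays. Control mice were albumin-cre(-) with the Socs3 genotype w/fl and were injected with saline (phosphate-buffered, PBS) or with IL-6 (interleukin-6). The Socs3-deleted mice were albumin-cre(+) with the Socs3 genotype -/fl and received the same 2 injections. Ifng-null mice lacked the gene of interferon-gamma (IFN-γ) and received PBS or IFN-γ. The albumin promoter is a hepatocyte promoter, so Cre is driven in hepatocytes and not in the macrophages followed here, while the null Socs3 allele of these mice is carried by every cell. Age, sex, strain and cytokine dose are not given in the sources used here. Whether the 2 replicates of a group came from separate mice is not stated by the labels. The p-values therefore reflect only how far these arrays spread, which may be technical. Whole liver RNA was measured, so more macrophages in a liver and more of a marker's RNA per macrophage cannot be told apart.

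Kupffer cells line the hepatic sinusoids, clear particles, microbes and spent red cells from portal blood, and are a main local source of C1q. C1q recognises immune complexes and starts the classical complement pathway, and its 3 chains assemble into 1 molecule. The survival of liver macrophages depends on signalling through the CSF1 receptor, and PU.1 (Spi1) is a transcription factor that macrophage genes widely depend on. Clec4f is restricted to Kupffer cells in mice, and Marco and Cd5l are carried by Kupffer cells and other tissue macrophages. Cd68, Laptm5 and Lyz2 are shared with monocytes and other blood cells.

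The 3 C1q genes neighbour each other on chromosome 4 in RefSeq. The promoter sequences of C1qb and C1qc are shown because these chains varied together across the arrays, and that of Cd5l because it had the widest range of the 10 genes. Each is the 250 bases before the start that the RefSeq promoter table (GRCm38.p6) uses for the gene, read 5′ to 3′ on the gene's strand, at chr4:136886201-136886450 (minus strand) for C1qb, chr4:136892915-136893164 (minus strand) for C1qc and chr3:87357631-87357880 (plus strand) for Cd5l. For C1qc that start lies inside the gene's RefSeq span, so the window shown takes in its first bases. Capitals mark the core letters of a PU.1 motif, GAGGAA, or TTCCTC where it lies on the other strand.
C1qb: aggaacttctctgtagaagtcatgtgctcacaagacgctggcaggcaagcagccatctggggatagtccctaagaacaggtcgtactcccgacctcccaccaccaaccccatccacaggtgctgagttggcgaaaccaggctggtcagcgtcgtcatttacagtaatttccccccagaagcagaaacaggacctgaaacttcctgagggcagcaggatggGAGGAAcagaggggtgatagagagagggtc
C1qc: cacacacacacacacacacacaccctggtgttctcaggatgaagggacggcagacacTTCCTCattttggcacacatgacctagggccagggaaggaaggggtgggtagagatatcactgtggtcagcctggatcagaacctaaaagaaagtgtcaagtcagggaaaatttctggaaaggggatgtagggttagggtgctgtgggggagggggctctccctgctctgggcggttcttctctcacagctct
Cd5l: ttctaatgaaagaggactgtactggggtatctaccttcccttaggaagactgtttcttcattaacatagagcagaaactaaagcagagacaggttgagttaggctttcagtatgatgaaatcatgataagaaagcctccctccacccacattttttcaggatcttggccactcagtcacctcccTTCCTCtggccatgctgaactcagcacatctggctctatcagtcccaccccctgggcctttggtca

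A promoter entry was matched for 8 of the 10 genes. GAGGAA was found on either strand in 6 of the 8 (C1qb, C1qc, Marco, Cd68, Cd5l and Laptm5), and 23.3% of all 32851 mouse promoter windows of 250 bases hold it. Between it and the gene's start lie 24 bases in C1qb, 32 in Laptm5 and 60 in Cd5l. TTCNNNGAA, the letters of the STAT-binding GAS motif, was in 0 of the 8 windows against 7.02% of all promoters. A pair of GAAA runs set 2 bases apart, letters of an interferon-stimulated response element, was in 0 of the 8 against 2.98%. Both were searched on either strand, and a match describes letters only.

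Array medians ran from 80.6 to 85.7 in intensity, and the replicates of a group correlated with r from 0.987 to 0.993 on the log2 scale. Socs3 checked the genotype labels: on its brighter probe set the 4 Socs3-deleted arrays read 74.4 to 106 and the other 8 arrays 114 to 167. Ifng was at most 7.81 on every array, so it checks nothing here. Replicate 2 of the control group after PBS and replicate 2 of the Socs3-deleted group after PBS stood apart through pancreatic acinar genes. The trypsinogen gene Prss2 read 651 and 1863 there, and at most 27.3 elsewhere. The median differences below that rest on these arrays are also given without them.

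The C1q chains were measured at several times the floor on every array. C1qa read 383 and 310.3 in control livers after PBS, 380.1 and 377 in control livers after IL-6, 427 and 546 in Socs3-deleted livers after PBS, 637 and 430.0 in Socs3-deleted livers after IL-6, 362 and 500.2 in Ifng-null livers after PBS, and 350.2 and 587 in Ifng-null livers after IFN-γ. C1qb read, in the same order of groups, 256 and 193, 279 and 264, 281 and 360.0, 439 and 302, 237 and 354, and 242 and 407. C1qc read 867 and 794, 872 and 973, 963 and 1121, 1480.4 and 1039, 829 and 1283, and 689 and 1389. For all 3 chains the highest array was replicate 1 of the Socs3-deleted group after IL-6. For C1qa and C1qb the lowest was replicate 2 of the control group after PBS, and for C1qc it was replicate 1 of the Ifng-null group after IFN-γ. The highest array of C1qa was 2.05 times the lowest. Both Ifng-null groups overlapped widely with the others. In each, 1 replicate lay near the control arrays and the other near the Socs3-deleted arrays. For C1qa and C1qb every Socs3-deleted array lay above every control array on these probe sets, and for C1qc they overlapped. A second C1qb probe set was dimmer, from 85.1 to 112, and spread less.

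Csf1r, the receptor for the macrophage growth factors CSF1 and IL-34, read 250.3 and 231 in control livers after PBS, 213.0 and 234 after IL-6, 249 and 289.7 in Socs3-deleted livers after PBS, 413 and 238 after IL-6, 215 and 238 in Ifng-null livers after PBS, and 195 and 205 after IFN-γ. A single array, replicate 1 of the Socs3-deleted group after IL-6, lay above all the others at 413. The other 11 arrays lay between 195 and 289.7. A dimmer Csf1r probe set ranged from 37.2 to 68.0, close to the floor, with its highest value on replicate 2 of the Ifng-null group after IFN-γ.

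Marco, a scavenger receptor that binds bacteria and particles, read 69.0 and 55.9 in control livers after PBS, 69.1 and 61.6 after IL-6, 93.5 and 67.0 in Socs3-deleted livers after PBS, 88.8 and 86.8 after IL-6, 62.3 and 58.0 in Ifng-null livers after PBS, and 56.6 and 60.0 after IFN-γ. Of these, 3 of the 4 Socs3-deleted arrays lay above the other 9 arrays, and the fourth (67.0) lay among the control arrays. Marco was the dimmest of the brighter probe sets of the 10 genes and lay above the floor on all 12 arrays. Its median of 64.6 was below the array medians of 80.6 to 85.7, and only the 3 high Socs3-deleted arrays lay above these.

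Cd5l, a secreted protein of tissue macrophages that binds IgM and lipids, read 242 and 185 in control livers after PBS, 226 and 251 after IL-6, 251 and 376 in Socs3-deleted livers after PBS, 375 and 279 after IL-6, 213 and 347 in Ifng-null livers after PBS, and 135 and 193 after IFN-γ. It had the widest range of the 10 genes, 2.78-fold from the lowest array (Ifng-null, IFN-γ, replicate 1) to the highest (Socs3-deleted, PBS, replicate 2). Both arrays after IFN-γ lay below both arrays of Ifng-null livers after PBS. Cd68, a lysosomal scavenger receptor of phagocytes, read 144 and 152, 152 and 169, 142 and 168, 125 and 173, 152 and 186, and 133 and 198 in the order of groups used above. Its group means, from 148 to 169, were the closest together of the 10 genes, and all 6 groups overlapped each other.

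Clec4f, a C-type lectin of Kupffer cells, read 554 and 479.9 in control livers after PBS, 528 and 508 after IL-6, 536 and 689 in Socs3-deleted livers after PBS, 576 and 529.5 after IL-6, 489 and 629 in Ifng-null livers after PBS, and 389 and 511 after IFN-γ. The highest array was replicate 2 of the Socs3-deleted group after PBS and the lowest replicate 1 of the Ifng-null group after IFN-γ. Its group means lay between 450 ± 86.7 (SD, n = 2) after IFN-γ and 613 ± 108 (SD, n = 2) in Socs3-deleted livers after PBS.

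Laptm5, a lysosomal membrane protein of blood cells, read 267 and 314 in control livers after PBS, 272 and 304 after IL-6, 275 and 289.6 in Socs3-deleted livers after PBS, 355 and 354 after IL-6, 269 and 259 in Ifng-null livers after PBS, and 263 and 280.0 after IFN-γ. Both Socs3-deleted arrays after IL-6 lay above the other 10 arrays. A second Laptm5 probe set ranged from 251 to 326, also with its highest 2 arrays in that group. Lyz2, the lysozyme of macrophages and granulocytes, read 188 and 133, 125 and 169.6, 173 and 232, 213 and 192, 163 and 234, and 133 and 198 in the order of groups used above. In the comparisons made here its groups overlapped except after IL-6, where both Socs3-deleted arrays lay above both control arrays. The probe set shared by Lyz1 and Lyz2 read 352 and 218 in control livers after PBS and 189 to 360.1 elsewhere.

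**Figure D1:**
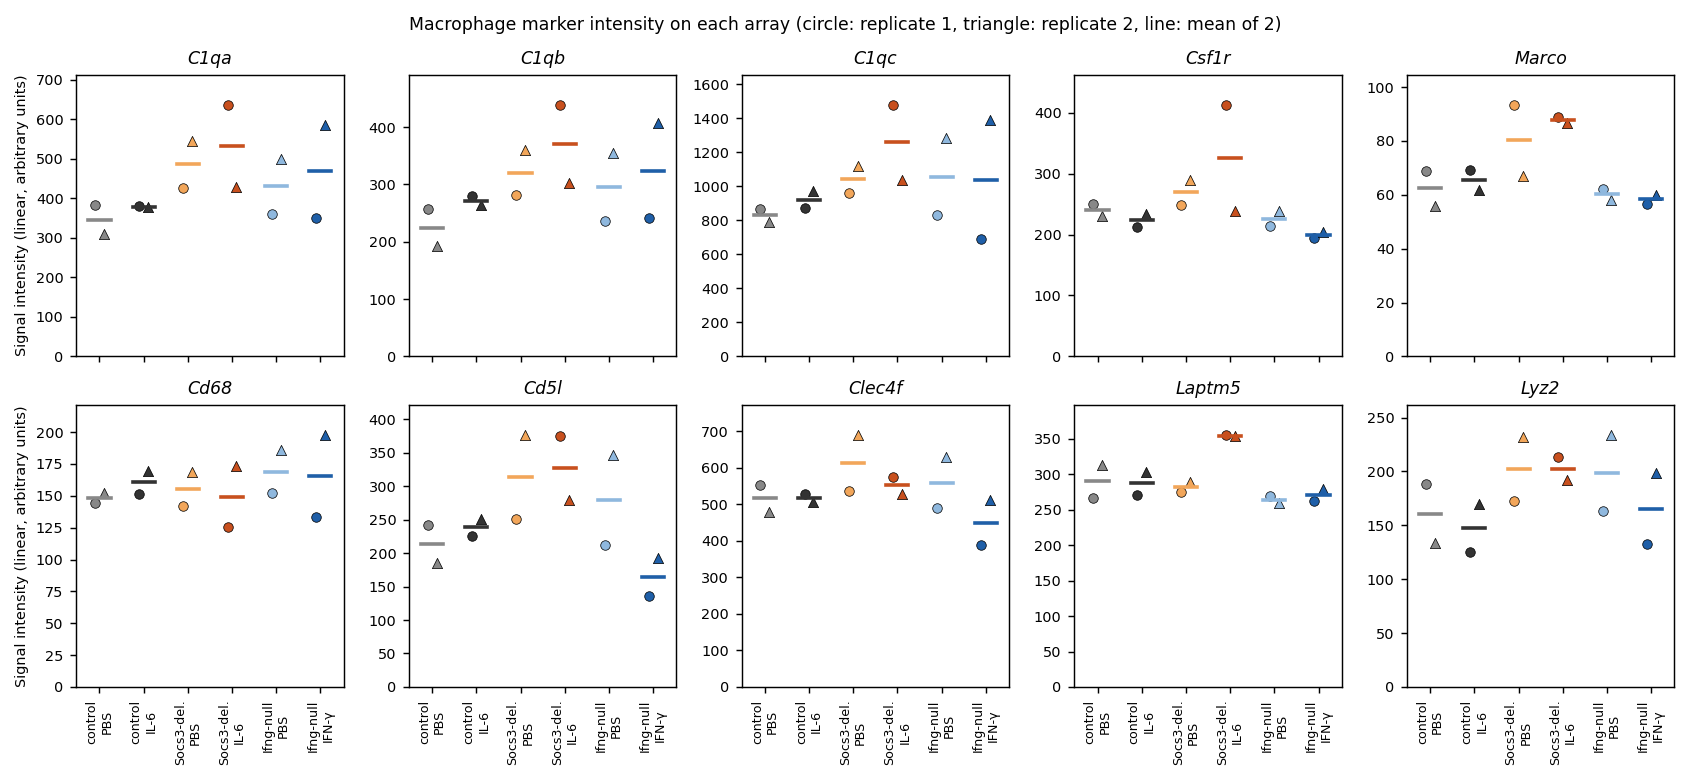
Intensity of the brightest probe set of each of the 10 marker genes on all 12 arrays, with a point per array, by group. C1qa runs from 310.3 to 637 and Cd5l from 135 to 376, and the 2 C1qc replicates after IFN-γ lie at 689 and 1389.

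The spread between replicates of these genes was wide. The within-group SD was 0.33 for C1qa, 0.35 for C1qb, 0.38 for C1qc, 0.35 for Cd5l and 0.32 for Lyz2 on the log2 scale, against a median of 0.15 over the 9641 probe sets tested. C1qc lay at the 96.6th percentile of that spread over all tested probe sets, and Laptm5, with 0.09, at the 14.7th. The SD between the 6 group means exceeded the within-group SD for 3 of the 10 genes, Cd5l (0.37), Marco (0.24) and Laptm5 (0.15). For the 3 C1q chains, Csf1r, Cd68, Clec4f and Lyz2 the SD between group means was the smaller one. Group means are of 2 arrays and spread less than single arrays even where groups do not differ. A smaller SD between means therefore does not show that the groups were alike. Over all tested probe sets the median SD was 0.11 between group means and 0.15 within groups.

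**Figure D2:**
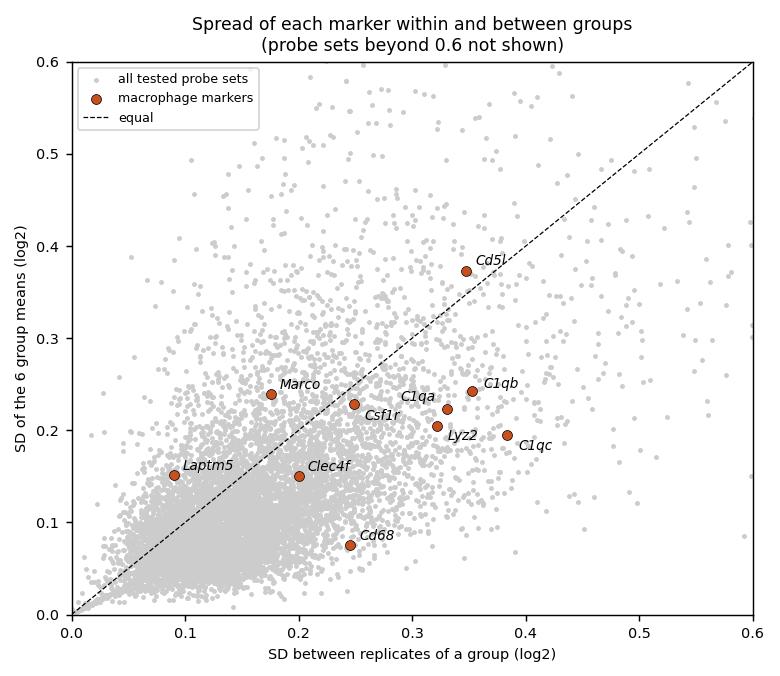
SD between the 6 group means against the SD within groups, both of log2 intensity, for the 10 marker genes and all tested probe sets, with a point per probe set (213 probe sets lie beyond 0.6). Cd5l, Marco and Laptm5 lie above the line of equal SDs, and the C1q chains lie to the right of it.

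Many of the markers moved together between replicates in 5 of the 6 groups. All 10 genes read higher on replicate 2 than on replicate 1 after IFN-γ, by a median of 1.45-fold, and C1qc by 2.02-fold (1389 against 689). In Ifng-null livers after PBS 8 of 10 were higher on replicate 2, and in Socs3-deleted livers after PBS 9 of 10. In Socs3-deleted livers after IL-6 it was replicate 1 that was higher, for 9 of 10, and in control livers after PBS also replicate 1, for 8 of 10. Control livers after IL-6 showed no common shift, with 4 genes higher on replicate 1 and 6 on replicate 2. Over all tested probe sets between 46.7% and 61.5% were higher on replicate 1 in a group, so the arrays as a whole did not show such a shift. C1qa, C1qb and Clec4f had the same sign of replicate gap in 6 of 6 groups. So did C1qc, Csf1r, Cd5l and Lyz2. Marco and Cd68 shared it in 1 of 6.

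The mean log2 deviation of the 10 genes from their own means over the 12 arrays described this per array. It was -0.06 and -0.26 in control livers after PBS, -0.14 and -0.05 after IL-6, 0.02 and 0.25 in Socs3-deleted livers after PBS, 0.38 and 0.12 after IL-6, -0.17 and 0.18 in Ifng-null livers after PBS, and -0.38 and 0.10 after IFN-γ. The 4 Socs3-deleted arrays lay above the 4 control arrays, and each Ifng-null group had 1 array below 0 and 1 above. The largest gap between replicates, 0.48 after IFN-γ, was wider than the range of the 6 group means, 0.41. In the other groups the gaps were narrower than that range, from 0.09 to 0.35. Means of 2 arrays also spread less than single arrays.

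**Figure D3:**
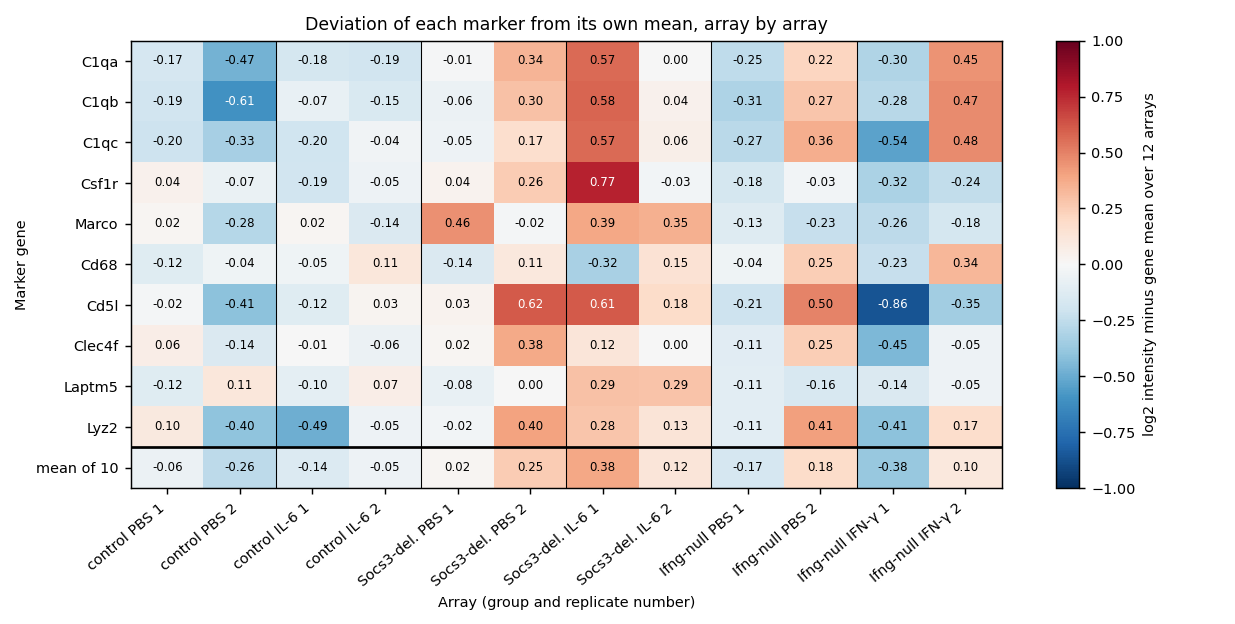
Log2 deviation of each marker gene from its own mean, by gene (vertical) and array (horizontal). Replicate 1 of the Socs3-deleted group after IL-6, with a mean of 0.38, is high for most genes, and replicate 1 of the Ifng-null group after IFN-γ, with a mean of -0.38, is low for all 10.

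As a description over the 12 arrays, which share groups and replicates, each gene was set against the mean of the other 9. Pearson's r was 0.89 for C1qc (Spearman's rho 0.92, and r 0.78 without the 2 arrays farthest from the median), 0.86 for C1qa, 0.85 for Cd5l, 0.83 for C1qb and Lyz2, and 0.76 for Clec4f. It was 0.67 for Csf1r, and 0.42 without the 2 farthest arrays, so that value rests in part on them. It was 0.42 for Marco (0.07 without those arrays), 0.37 for Laptm5 (-0.06) and 0.13 for Cd68 (0.54). The markers therefore did not vary as 1 block: C1q, Cd5l, Lyz2 and Clec4f kept together most closely.

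Among 8563 other probe sets, the 8 most like the mean profile of the 10 genes were those of Cfp, Arpc2, Lgmn, Serinc3, Hnrnpa2b1, Plpp1, Csnk1a1 and Ybx3, with r from 0.90 to 0.96 over 12 arrays. Cfp, which encodes the complement regulator properdin, came first with r = 0.96 (rho 0.97, and r 0.95 without the 2 farthest arrays). Cfp read 82.1 and 73.7 in control livers after PBS, 78.2 and 89.3 after IL-6, 103 and 112 in Socs3-deleted livers after PBS, 123 and 112 after IL-6, 76.5 and 120.2 in Ifng-null livers after PBS, and 64.3 and 100.1 after IFN-γ. Its 4 Socs3-deleted arrays lay above its 4 control arrays and the replicates after IFN-γ lay apart as those of the markers did. Arpc2, a subunit of the actin-nucleating Arp complex, followed with r = 0.93 and Lgmn, a lysosomal protease, with r = 0.92.

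No marker differed among the 6 groups past the threshold. With limma's moderated F test, 0 of the 13 member probe sets had an adjusted p under 0.05, against 2.01% of all 9641 tested, and 2 of the 13 had an unadjusted p under 0.05, against 11.2%. These were Marco (unadjusted p = 0.0260, limma adjusted p = 0.322) and Laptm5 (unadjusted p = 0.0374, limma adjusted p = 0.383). Cd5l followed (unadjusted p = 0.0542, limma adjusted p = 0.464). The C1q chains had limma adjusted p from 0.832 to 0.941.

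IL-6 in control livers addresses what the cytokine does with Socs3 intact. Here 0 of 13 member probe sets passed (0% of all tested passed), and 1 had an unadjusted p under 0.05 in limma, against 2.57% of all: the dim Csf1r probe set, at 38.9 ± 2.35 after IL-6 and 53.0 ± 5.32 after PBS (SD, n = 2 each). The brighter Csf1r probe set differed by -0.11 ± 0.21 (SE) on the log2 scale. The estimates were positive for 7 of the 10 genes (45.1% of all tested were positive) with a median of 0.09, against -0.01 over all tested, and the median was -0.02 without the control array with pancreatic signal. C1qb and C1qc did not overlap between the 2 groups, both higher after IL-6 (12.6% of all tested were higher and 14.3% lower without overlap). C1qb was at 272 ± 10.4 against 224 ± 45.0 (SD, n = 2 each), a log2 difference of 0.29 ± 0.29 (SE). Its second probe set differed by 0.07 ± 0.11, with overlapping arrays. For C1qa the difference was 0.14, with a 95% interval from -0.49 to 0.76, and for Clec4f 0.01, from -0.40 to 0.41. The largest upper bound among the 10 genes was a 1.93-fold rise, for C1qb, so a rise up to that size still lies within its interval.

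In Socs3-deleted livers IL-6 also moved no member past the threshold. None of 13 passed, against 1.17% of all tested, and 1 of 13 had an unadjusted p under 0.05 in limma, against 10.8% of all. It was Laptm5, at 355 ± 0.601 after IL-6 and 282 ± 10.3 after PBS (SD, n = 2 each), a log2 difference of 0.33 ± 0.11 (SE; limma unadjusted p = 0.0138, adjusted p = 0.267). The second Laptm5 probe set differed by 0.12 ± 0.11. Laptm5 was the 1 gene of 10 that was higher on both arrays without overlap, and none was lower (19.0% of all tested were higher and 21.1% lower). Estimates were positive for 8 of 10 genes (50.6% of all), with a median of 0.13 against 0.00 over all tested. C1qa differed by 0.12 (95% interval -0.51 to 0.74), Cd5l by 0.07 (-0.58 to 0.72) and Clec4f by -0.14 (-0.54 to 0.27). The median was -0.07 without replicate 1 of the group after IL-6, and 0.31 without the PBS array with pancreatic signal.

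The difference between the 2 responses to IL-6, tested as an interaction, was past the threshold for 0 of 13 member probe sets and for 0.0415% of all tested, and 0 of 13 had an unadjusted p under 0.05 in limma, against 3.94% of all. Laptm5 came nearest with a log2 difference of 0.34 ± 0.15 (SE; limma unadjusted p = 0.0532, adjusted p = 0.999). Csf1r stood at 0.33 ± 0.30, and 5 of the 10 estimates were positive (52.6% of all), with a median of 0.03. Without both arrays with pancreatic signal the median was 0.28, and 0 of 13 passed then as well. The largest upper bound was 2.17-fold.

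IFN-γ was given to Ifng-null mice, whose cells make none of their own. Among the markers 0 of 13 probe sets passed, against 0.653% of all tested, and 1 had an unadjusted p under 0.05 in limma, against 6.93% of all. It was Cd5l, at 164 ± 40.6 after IFN-γ and 280 ± 94.7 after PBS (SD, n = 2 each), a log2 difference of -0.75 ± 0.29 (SE; 95% interval -1.40 to -0.10; limma unadjusted p = 0.0286, adjusted p = 0.594). Cd5l and Csf1r were lower on both arrays after IFN-γ without overlap, and none was higher (17.0% of all tested were lower and 9.57% higher). The dim Csf1r probe set went the other way, at 56.7 against 45.9, a log2 difference of 0.28 ± 0.19 (SE) with overlapping arrays. Clec4f read 450 ± 86.7 against 559 ± 99.0 (SD, n = 2 each), a log2 difference of -0.32 ± 0.18 (SE; limma adjusted p = 0.874) with overlapping arrays. The C1q chains were spread around no difference, at 0.09 for C1qa, 0.11 for C1qb and -0.08 for C1qc, each with an SE of 0.28 or more. Estimates were positive for 3 of 10 genes (38.7% of all), and the median was -0.06 against -0.03 over all tested.

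Genotype was compared after each injection. These comparisons share arrays with those of IL-6, and the control arrays after PBS also serve the comparison with Ifng-null livers below. Many of the markers varied together across the arrays, so the genes counted below are not separate observations. After PBS 0 of 13 member probe sets passed between Socs3-deleted and control livers, as did 0% of all tested, and 0 of 13 had an unadjusted p under 0.05 in limma, against 4.17% of all. Of the 10 estimates 9 were positive (45.1% of all tested), with a median log2 difference of 0.33 against -0.02 over all tested. C1qa, at 486 ± 84.5 against 346 ± 51.1 (SD, n = 2 each), differed by 0.49 ± 0.28 (SE), C1qb by 0.52 ± 0.29 and Cd5l, at 314 ± 88.3 against 214 ± 40.3, by 0.54 ± 0.29. These 3 and C1qc were higher on both Socs3-deleted arrays without overlap, 4 of 10 genes with none lower, where 15.6% of all tested were higher and 17.9% lower. The limma adjusted p was 0.951 or more for each of the 10 genes. On the second probe sets C1qb differed by 0.23, Csf1r by -0.20 and Laptm5 by 0.06. The brighter ones of Csf1r and Laptm5 differed by 0.16 and -0.04. The group of 4 arrays holds both arrays with pancreatic acinar signal, and without them the median was 0.05. The part of these arrays in the result was not tested.

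After IL-6, 9 of 10 genes were higher on both Socs3-deleted arrays than on both control arrays, all but Cd68, and none was lower (17.6% of all tested probe sets were higher and 22.7% lower). These 9 also had positive estimates, as did 45.2% of all tested. Many of them varied together, and some were set apart narrowly. The lower Socs3-deleted and the higher control array read 529.5 and 528 for Clec4f, and 238 and 234 for Csf1r. Of the 13 member probe sets 0 passed, against 0.954% of all tested. In limma 3 of 13 had an unadjusted p under 0.05, against 9.09% of all. They were Laptm5 (log2 difference 0.31 ± 0.11 SE, adjusted p = 0.382), Marco (87.8 ± 1.40 against 65.3 ± 5.25, SD, n = 2 each; 0.43 ± 0.16, adjusted p = 0.427) and Csf1r (325 ± 124 against 224 ± 14.9; 0.49 ± 0.21, adjusted p = 0.543), all from limma. Csf1r rested on replicate 1 of the Socs3-deleted group, and its difference was 0.09 without that array and 0.89 without replicate 2. C1qa differed by 0.47, C1qb by 0.42, C1qc by 0.43, Cd5l by 0.44 and Lyz2 by 0.47, with SEs from 0.27 to 0.32. On the second probe sets C1qb differed by 0.07, Csf1r by 0.21 and Laptm5 by 0.22. Clec4f differed by 0.09 and Cd68 by -0.12. The median of the 10 genes was 0.43 against -0.01 over all tested, and 0.18 without replicate 1 of the Socs3-deleted group.

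The genotypes were also set against each other over both injections, 4 arrays against 4, a comparison chosen after the array values had been seen. In it 0 of 13 member probe sets passed, against 0.799% of all tested, and 4 had an unadjusted p under 0.05 in limma, against 9.79% of all. They were Marco (log2 difference 0.39, 95% interval 0.13 to 0.65, limma adjusted p = 0.215), C1qa (0.48, 0.04 to 0.92, adjusted p = 0.461), Cd5l (0.49, 0.03 to 0.95, adjusted p = 0.475) and C1qb (0.47, 0.00 to 0.94, adjusted p = 0.508). C1qa, C1qb and Cd5l were higher on all 4 Socs3-deleted arrays, and none was lower on all 4 (1.86% of all tested were higher and 3.10% lower). Estimates were positive for 9 of 10 genes, as for 43.4% of all tested. Lyz2 stood at 0.41, C1qc at 0.38, Csf1r at 0.32, Clec4f at 0.17, Laptm5 at 0.13 and Cd68 at -0.03. On the second probe sets the differences were 0.15 for C1qb, 0.01 for Csf1r and 0.14 for Laptm5. The median of the 10 was 0.38, and 0.24 without the 2 arrays with pancreatic signal.

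Ifng-null and control livers after PBS differed in 0 of 13 member probe sets (0% of all tested passed), and 0 of 13 had an unadjusted p under 0.05 in limma, against 3.08% of all. Of the 10 estimates, 7 were positive (46.8% of all), with a median of 0.24, and 0.01 without replicate 2 of the Ifng-null group and 0.10 without the control array with pancreatic signal. C1qb differed by 0.38 ± 0.29 (SE), Cd5l by 0.36 ± 0.29, C1qa by 0.30 ± 0.28 and Marco by -0.05 ± 0.16. On its second probe set C1qb differed by 0.08 ± 0.11. The 2 groups overlapped for each of the 10 genes on the brighter probe set, where 12.6% of all tested were higher and 15.1% lower without overlap.

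**Figure D4:**
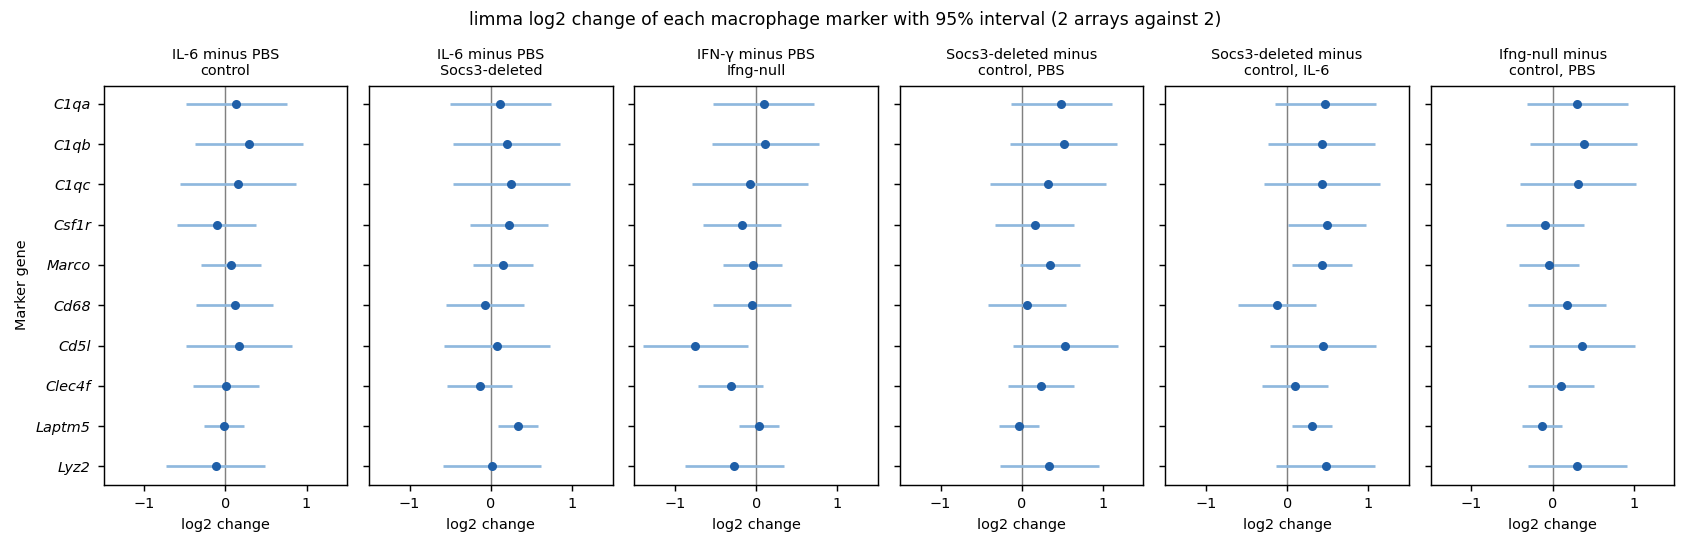
Log2 difference of each marker gene in the comparisons, with points for the estimates and bars for the 95% intervals from limma. In the comparisons of Socs3-deleted with control livers 9 of 10 points lie above 0 after PBS and 9 of 10 after IL-6, and in no comparison did a marker pass the adjusted threshold.

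Of 34 further macrophage genes 28 were tested, and these gave calls that the 10 markers did not. With limma's F test among the 6 groups, 4 of the 28 had an adjusted p under 0.05, against 2.01% of all tested. Cd14, the lipopolysaccharide co-receptor, read 326 and 311 in Socs3-deleted livers after PBS and 775 and 842 after IL-6, and 257 and 281, then 328 and 269.7, in control livers. It rose after IL-6 in Socs3-deleted livers by 1.34 ± 0.13 (log2, SE; limma adjusted p = 0.00121) and was higher there than in control livers after IL-6 by 1.44 ± 0.13 (limma adjusted p = 0.000868). Both arrays lay above all the other 10. Id3, a transcriptional regulator that Kupffer cells carry, rose in the same livers from 344 and 532 to 1054 and 1267, by 1.44 ± 0.28 (SE; limma adjusted p = 0.0485). Hepatocytes can also express both genes.

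Fcgr1, the high-affinity IgG receptor, rose after IFN-γ from 79.0 and 74.4 to 136 and 166, by 0.97 ± 0.12 (SE; limma adjusted p = 0.00796), and no other gene of that list passed there. In the comparison over both injections Id3 was higher by 1.11 ± 0.20 and Cd14 by 0.84 ± 0.09 (SE) in Socs3-deleted livers (limma adjusted p = 0.0460 and 0.00445). None of the 28 passed in control livers after IL-6, in the interaction, or after PBS for either genotype, and none fell in any comparison. The median log2 difference of the 28 was 0.05 for IL-6 in control livers, 0.13 in Socs3-deleted livers, 0.04 for IFN-γ, 0.12 for Socs3 deletion after PBS and 0.22 after IL-6. Ctss, a lysosomal protease, read 726 on replicate 1 and 428 on replicate 2 of the Socs3-deleted group after IL-6, the same order as C1q and Csf1r. Adgre1, which encodes F4/80, read 137 and 93.6 there. The list did not share this order as a whole. On the same 2 arrays Cd14 (775 and 842), Id3 (1054 and 1267) and Ctsc (237 and 259) read higher on replicate 2. The mean deviation of the 28 per array ran from -0.20 on replicate 1 after IFN-γ to 0.31 on replicate 1 of the Socs3-deleted group after IL-6, the arrays at which the 10 markers were lowest and highest.

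Of 16 genes of the CSF1 pathway and of macrophage growth and transcription factors 11 were tested, and 1 passed in 1 comparison. With the F test among the 6 groups 1 of the 11 passed. Irf8, a transcription factor of the monocyte and macrophage line that also responds to interferon, rose after IFN-γ from 80.5 and 71.0 to 288 and 268, by 1.88 ± 0.12 (log2, SE; limma adjusted p = 0.000142). Spi1 (PU.1) read 195 and 119 in Socs3-deleted livers after IL-6 and 110.1 and 106 after PBS, a log2 difference of 0.50 ± 0.21 (SE; limma adjusted p = 0.411), with its high value on the array where Csf1r was high. The growth factor Csf1 read from 156 to 196 on all 12 arrays. Cebpb, a factor that macrophages and hepatocytes share, was higher after IL-6 in Socs3-deleted than in control livers by 1.63 ± 0.50, which did not pass (limma adjusted p = 0.262).

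Markers of other cell types were read on the same arrays. Of 12 tested neutrophil and monocyte genes, 0 passed in any comparison, and their mean deviation per array stayed within -0.15 to 0.09. S100a8, a neutrophil protein, differed by 0.50 ± 0.21 (SE; limma adjusted p = 0.420) after IL-6 in Socs3-deleted livers, and Mpo, Cxcr2, Ccr2, Itgb2 and Mmp8 were not above the floor on 2 arrays. Of 14 hepatocyte genes 1 passed: Hpd, an enzyme of tyrosine breakdown, fell by 0.57 on the log2 scale after IL-6 in Socs3-deleted livers (limma adjusted p = 0.0460). Their mean deviation was -0.13 and -0.42 on these 2 arrays and between -0.21 and 0.27 on the others, and 0 of 14 estimates were positive between the genotypes after IL-6 (median -0.21). Hepatocyte genes were lower in the group where the 10 markers were highest. Within that group the markers (0.38 against 0.12) and the hepatocyte genes were both higher on replicate 1. Hepatocyte genes were also lower after IFN-γ, with 1 of 14 estimates positive and a median of -0.26, and there the markers averaged -0.14. Fewer hepatocytes and less of these RNAs per hepatocyte cannot be told apart here. The part of the hepatocyte genes in the markers' values was not tested.

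Of 11 endothelial genes none passed, with a mean deviation per array from -0.12 to 0.19, highest on replicate 1 of the Socs3-deleted group after IL-6. Of 12 genes of stellate cells and fibroblasts, 5 of T and NK cells, 8 of B cells and 6 of red cells, none passed in any comparison. Red cell genes ran from -0.43 on that same replicate to 0.57 on replicate 2 of the control group after PBS, where the 10 markers were at -0.26. The 7 pancreatic acinar genes stood at 2.06 and 3.49 on replicate 2 of the control and of the Socs3-deleted group after PBS and at most -0.48 elsewhere. The markers were at -0.26 and 0.25 on these 2 arrays. The part of these cells in the markers' values was not tested. A further 7 genes known to respond to IFN-γ were read as a check on the injections, none of them a marker used here. Like the other lists they were chosen with earlier results of these data known, so the check is not independent. Of these, 6 rose after IFN-γ and 4 rose after IL-6 in Socs3-deleted livers (Gbp2, Cxcl9, Igtp and Psmb9). After IL-6 in control livers 0 of the 7 passed, as did 0% of all tested, while 6 of the 7 estimates were positive. The largest were those of Ifi47 (617 against 160 after PBS, log2 difference 1.85 ± 0.53, SE) and Igtp (368 against 109, 1.56 ± 0.42). Neither gene overlapped between these groups. The mean deviation of the 7 was 0.12 and -0.89 after IL-6 and -1.12 and -1.47 after PBS in control livers. The 7 genes were chosen for their response to IFN-γ. Whether the IL-6 injection took effect in control livers was therefore not tested directly.

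**Figure D5:**
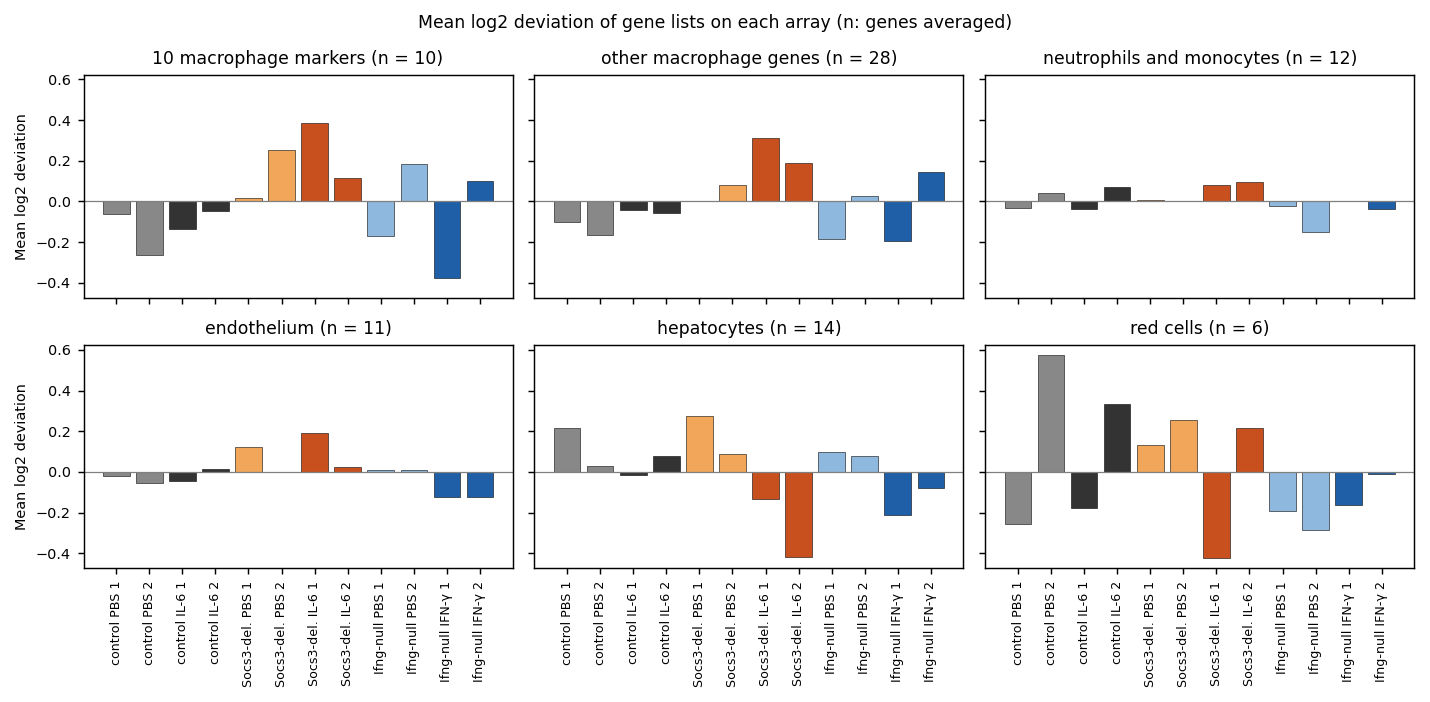
Mean log2 deviation per array for the 10 markers and for lists of other macrophage genes and other cell types, with a bar per array. The 10 markers run from -0.38 to 0.38, the 28 other macrophage genes from -0.20 to 0.31 and the neutrophil and monocyte genes from -0.15 to 0.09.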

How the data were processed

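Affymetrix mouse arrays had been hybridised with total liver RNA, 12 arrays in 6 groups of 2. The authors deposited a linear signal intensity for each probe set of each array, and the software and scaling behind it are not given in the sources used here. No further scaling was applied. Groups and replicate numbers came from the sample titles.

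Over all 12488 probe sets, 33.0, the 25th percentile, was set as a floor, 66 control probe sets were left out, and log2 was taken. Probe sets above the floor on at least 2 arrays were tested, which left 9641. With limma 3.58.1 in R 4.3.3 (lmFit, contrasts.fit, eBayes), the 6 group means were modelled over the 12 arrays, which left 6 residual degrees of freedom beside 3.38 prior ones. Two-sided p-values were adjusted by Benjamini-Hochberg over the 9641, and the threshold was 0.05. Log2 differences are of floored values, and group means ± SD are of the deposited intensities. Where a gene had several probe sets, the one with the highest mean stood for it. The platform annotation gives 1 symbol for 10833 probe sets, several for 396 and none for 1193. With 2 arrays a group, the number of arrays limits the precision.

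Every member probe set is named. From other lists a gene is named if it passed in a comparison, at most 6 a list and comparison, and otherwise up to 2 with the largest difference could be. The F test was not used for this naming. Ctss, Adgre1 and Csf1 are named outside this rule, chosen after their values were seen. The genes most like the markers are the 8 with the highest r. The markers and the lists were chosen with earlier results of these data known. The code was tested on simulated data. Alternatives tried were other scaling, floors, filters, an intensity trend, array weights, fewer groups, a replicate block and leaving out arrays.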

Additional observations from a re-analysis of the deposited data

How the results depend on the processing

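With each alternative, 0 of the 13 member probe sets passed in limma in any comparison, while the number called over all tested probe sets moved, for example from 13 to 223 between the genotypes after IL-6. Of 209 counts, 207 stayed within 1.5 times. Most of these were counts of called member probe sets, which stayed at 0, so this number says little about stability. The count of genes higher on both Socs3-deleted arrays after PBS, 4 of 10, was 8 without replicate 1 of the Socs3-deleted group and 8 without replicate 1 of the control group (5 to 8 over the arrays left out). Leaving out an array can only keep or raise such a count, and 1 array then stands for its group. Of 2293 member differences, none crossed the threshold and 100 uncalled ones turned sign. The replicate numbers were not taken to pair the samples: over 15 pairs of groups the deviations of same-numbered arrays correlated from -0.25 to 0.66, with 8 above 0.1 and the highest between the Ifng-null groups. With the replicate block, 0 of 13 member probe sets passed in each comparison (for IFN-γ, limma adjusted p = 0.529 for Cd5l and 0.767 for Clec4f), and with the crossed replicate block 0 passed between Ifng-null and control livers after PBS, where the correlation was -0.11. The median marker difference turned sign without 1 array for IL-6 in control livers (-0.02 without replicate 2 of the PBS group), for IL-6 in Socs3-deleted livers (-0.07), for IFN-γ (0.05 without replicate 1) and for the interaction (-0.14 without replicate 1 of the Socs3-deleted group after PBS). Changes of probe sets near the floor, such as the dim one of Csf1r, may be understated.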
